A study of Homo sapiens with 4 samples.

Results

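The genes of DNA replication origins and forks were followed in A549 cells, a human lung adenocarcinoma line. They comprise 47 genes listed by function, from origin recognition to chromatin assembly behind the fork, and each was found by its symbol among the 57905 genes of the deposited files. The control group is 2 libraries of A549 cells labelled only as control at 24 h, with no vehicle named, and the GMI group is 2 libraries of A549 cells exposed for 24 h to 0.6 µM GMI, an immunomodulatory protein made by Ganoderma microsporum, a fungus. All 4 came from cells grown in DMEM with 10% fetal bovine serum. Separate cultures are not stated for libraries within a group, so p-values measure only the spread between these libraries, which may be technical. The only comparison is GMI against control.

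Replication starts at origins, which the origin recognition complex (ORC) marks on chromatin. In G1, CDC6 and CDT1 help ORC load the ring-shaped MCM2-7 helicase, a step called licensing. In S phase CDC45 and the GINS complex join the ring to form the active helicase, polymerases copy the unwound strands, and the sliding clamp PCNA, loaded by RFC, holds them on DNA. Many of these genes carry binding sites for E2F transcription factors and are transcribed most around the entry into S phase, whereas several ORC and RFC subunits are made throughout the cycle.

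Several genes of ORC, licensing and the helicase ring had lower RNA levels after GMI. So did E2F1, UHRF1 and the fork genes POLD2 and RFC3, while 0 of 3 tested helicase activators passed the test. The transcription factor E2F1, the licensing factors CDC6 and CDT1, the epigenetic regulator UHRF1 and the small ORC subunit ORC6 had the lowest ratios among the members tested, between 0.453 and 0.511 of the control mean. Called subunits of the helicase and of the ORC core lay between 0.645 and 0.791, and the clamp, most of its loader and the single-strand binding proteins did not pass the test. Levels are FPKM, fragments divided by gene length and by library size, so they are relative to all RNA in a library. Comparing levels between genes relies on the gene lengths used, which are not given. Of the 47 members 40 had at least 1 FPKM in at least 2 libraries and were tested. With limma on log2(FPKM + 1), 13 of the 40 fell at a Benjamini-Hochberg adjusted p under 0.05 (32.5%), against 6.12% of all 11598 genes tested. None rose (0 of 40, against 9.30% of all genes). The median log2 fold change of the 40, GMI over control, was -0.30, against -0.01 for all genes tested. Both GMI libraries were below both controls in 32 of the 40, against 30.4% of all genes, and above both in 3, against 29.8%. In the other 5 the groups overlapped.

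Those calls rest on having all 4 libraries and on the filter. With 1 library left out a group holds a single library, and fewer members and fewer of all genes passed, fewest without a control. The median log2 fold change of the tested members was then -0.27 without control replicate 1 and -0.27 without control replicate 2. It was -0.28 without GMI replicate 1 and -0.23 without GMI replicate 2. Without a filter on low values 0 of the 47 members passed and only 1 of all 26758 genes did, so this loss was not particular to the members. The log2 fold change was negative for 36 of the 40 when control replicate 1, control replicate 2 or GMI replicate 1 was left out. It was negative for 37 without GMI replicate 2. For 32 of the 40 this sign was fixed in advance, because both GMI libraries were below both controls. ORC6 and the polymerase subunit gene POLE reached 1 FPKM in the control libraries only, so passing the filter already depended on a difference. With a filter on the mean of the 4 libraries instead, the same 13 members fell of 39 tested, against 6.29% of all genes. Because the libraries are bulk RNA, fewer cells in a given phase of the cycle and less of a transcript per cell cannot be told apart.

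**Figure D1:**
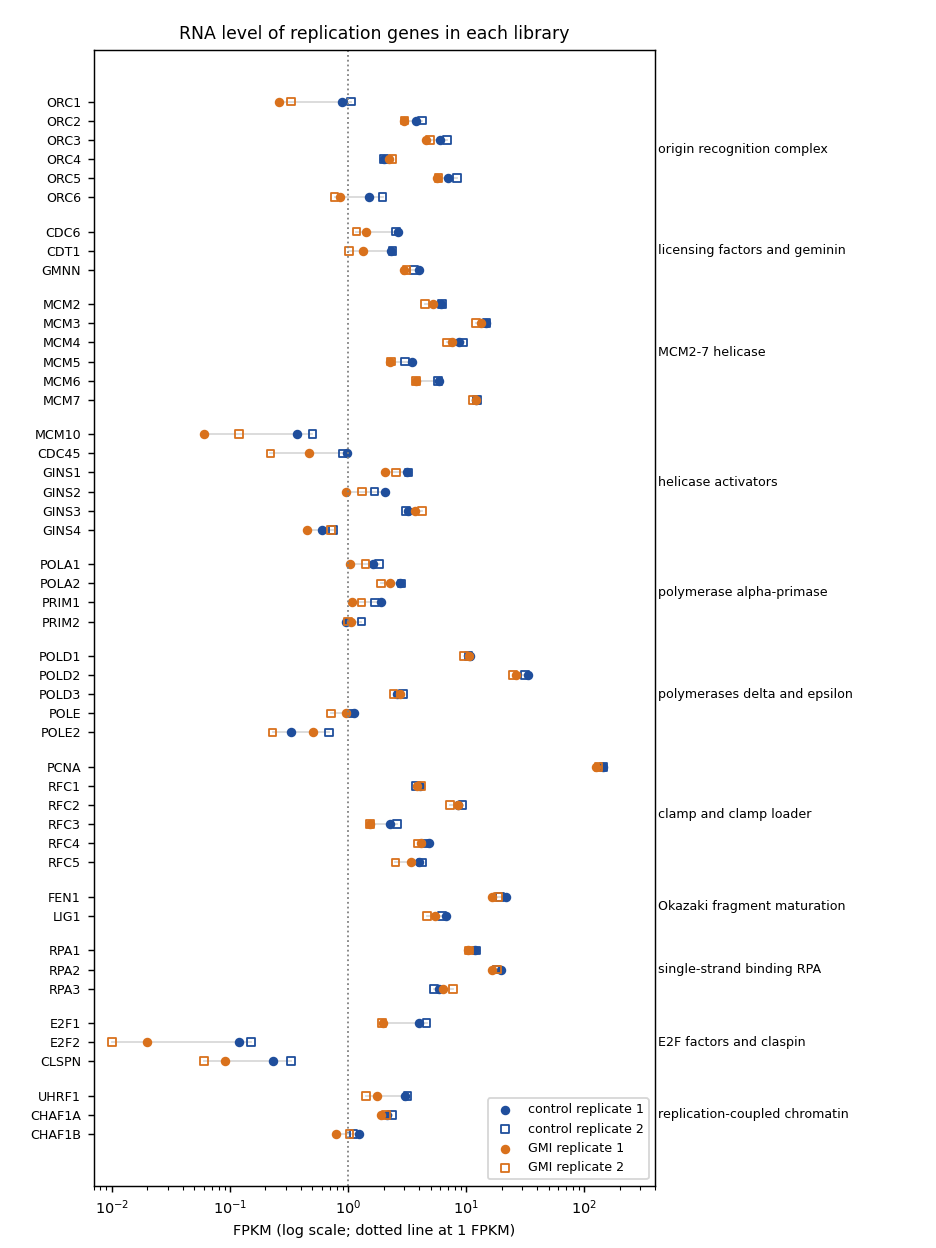
FPKM of the 47 members (log axis) in each of the 4 libraries, by complex, with blue for control and orange for GMI, filled circles for replicate 1 and open squares for replicate 2. Orange points lie left of blue ones in most rows, and furthest in ORC1, MCM10, CDC45, E2F2 and CLSPN, which are at or under 1.06 FPKM; the dotted line marks 1 FPKM.

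Each library held between 20560000 and 24090000 fragments, as judged from its FPKM steps, and 11301 to 11472 genes per library reached 1 FPKM. The epithelial keratin gene KRT8 stood at 1841 to 1981 FPKM and KRT18 at 700 to 885, while EPCAM stayed at or below 0.35. The other listed epithelial markers were also low, KRT19 at 0.36 to 0.96 FPKM and CDH1 at 1.96 to 2.55. Of 7 listed markers of blood, fibroblast and endothelial cells found in the files, 3 were at 0 in all 4 libraries, and the 7 together summed to between 0.79 and 0.97 FPKM per library. CDKN2A, which A549 cells are known to have lost, was listed at 0 in all 4. Markers of dividing cells were lower in both GMI libraries. MKI67 had 0.19 and 0.23 FPKM in the controls and 0.04 and 0.02 after GMI, and CDK1 had 0.72 and 0.67 against 0.16 and 0.13. CCNB1 had 7.68 and 8.75 FPKM in the controls and 7.15 and 7.13 after GMI. These markers moved in the same direction as the replication genes, and their part in the result was not tested.

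E2F1, an activator of S-phase transcription, had the lowest log2 fold change of the tested members. It stood at 4.02 and 4.63 FPKM in the controls and at 1.97 and 1.95 FPKM after GMI, so the groups were well apart and the GMI libraries nearly equal. E2F1 (ENSG00000101412) thus fell from 4.33 ± 0.431 to 1.96 ± 0.014 FPKM (SD, n = 2 per group here and below), a log2 fold change, GMI over control, of -0.84 (SE 0.094, limma adjusted p = 0.00312). E2F2, a close relative, was near the limit of detection, with 0.12 and 0.15 FPKM in the controls and 0.02 and 0.01 after GMI. That is about 33 fragments against 3 over the 2 libraries of each group, a ratio of 0.095 with an exact 95% interval of 0.0186 to 0.303 that covers counting error only. CLSPN encodes claspin, which carries the replication checkpoint signal to CHK1 at the fork. It had 0.23 and 0.33 FPKM in the controls and 0.09 and 0.06 after GMI, about 69 fragments against 18 and a ratio of 0.273 (exact 95% interval 0.153 to 0.463). Both E2F2 and CLSPN were below the filter and were not tested, and in each the GMI libraries lay under both controls.

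Promoter letters are shown because many of these genes are classic E2F targets. The 200 bases before the transcription start of 6 members are given 5′ to 3′ from the RefSeq promoter table (build GRCh38.p14), which held 41 of the 47 members. Capitals mark the E2F-type letters TTTCCCGC or TTTCGCGC or TTTGCCGC or TTTGGCGC on either strand, where overlapping matches were allowed. E2F1 and MCM6 are members with several matches that fell, CDT1 is a licensing factor with a single match, PCNA and MCM7 hold matches and did not pass the test, and ORC5 fell without a match. The stretches lie at chr20:33686386-33686585 on the minus strand, chr2:135876444-135876643 on the minus strand, chr16:88803589-88803788 on the plus strand, chr20:5126623-5126822 on the minus strand, chr7:100101398-100101597 on the minus strand and chr7:104208014-104208213 on the minus strand.
E2F1: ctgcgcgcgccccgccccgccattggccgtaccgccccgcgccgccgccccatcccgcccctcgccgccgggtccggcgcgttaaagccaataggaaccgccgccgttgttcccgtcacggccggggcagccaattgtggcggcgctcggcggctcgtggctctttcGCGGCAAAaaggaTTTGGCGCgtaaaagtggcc
MCM6: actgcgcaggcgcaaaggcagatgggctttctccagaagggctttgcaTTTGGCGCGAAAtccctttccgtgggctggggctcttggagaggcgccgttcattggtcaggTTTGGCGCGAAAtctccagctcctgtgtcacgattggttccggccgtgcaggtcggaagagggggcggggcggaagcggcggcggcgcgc
CDT1: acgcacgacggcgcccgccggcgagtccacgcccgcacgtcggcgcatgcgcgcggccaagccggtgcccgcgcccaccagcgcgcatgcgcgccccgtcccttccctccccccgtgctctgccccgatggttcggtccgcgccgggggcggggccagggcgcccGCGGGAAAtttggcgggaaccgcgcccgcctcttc
PCNA: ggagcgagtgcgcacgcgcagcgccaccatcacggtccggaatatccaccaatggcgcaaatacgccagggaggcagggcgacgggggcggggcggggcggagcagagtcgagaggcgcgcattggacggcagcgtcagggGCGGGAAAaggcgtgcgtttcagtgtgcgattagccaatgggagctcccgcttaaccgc
MCM7: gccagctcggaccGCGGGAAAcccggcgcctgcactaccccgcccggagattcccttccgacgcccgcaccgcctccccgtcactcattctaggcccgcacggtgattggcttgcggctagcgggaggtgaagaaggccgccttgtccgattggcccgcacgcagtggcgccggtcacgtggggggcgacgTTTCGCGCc
ORC5: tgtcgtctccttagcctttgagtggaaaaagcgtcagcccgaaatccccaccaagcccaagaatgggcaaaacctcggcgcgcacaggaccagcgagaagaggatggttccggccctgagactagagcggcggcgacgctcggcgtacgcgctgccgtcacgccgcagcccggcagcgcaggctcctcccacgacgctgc

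MCM6 holds 4 overlapping matches in 2 pairs, each pair joining TTTGGCGC, read along the printed strand, and TTTCGCGC, read on the other, in the letters TTTGGCGCGAAA. In the whole window, from 250 bases before the start to 50 after, 22 of the 41 members (53.7%) held at least 1 match, against 5.4% of 15843 protein-coding genes in the same table and 3.31% of all 35116 windows. The CCAAT box, the letters CCAAT on either strand, was in 61.0% of the members and 42.1% of protein-coding genes. For the GC box, GGGCGG on either strand, the shares were 75.6% and 64.3%. Of the 30 E2F-type matches 20 began within 60 bases of a start. Letters and change did not run in parallel throughout. Of the 22 members with a match 19 were tested and 7 fell (CDC6, CDT1, E2F1, MCM6, ORC3, RFC3 and UHRF1) and the median ratio of mean FPKM over the 22, GMI over control, was 0.722. Of the 19 without one 16 were tested and 4 fell (ORC2, ORC5, ORC6 and POLD2) and the median ratio over the 19 was 0.795. Of all genes tested 6.12% fell, and the difference between members with and without a match was not tested. A match describes letters in this window and not binding of a factor. Variants of the listed letters were not searched, so a gene without a match may still hold an E2F site. ORC1, MCM10 and CDC45, which had low ratios, held no match.

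**Figure D2:**
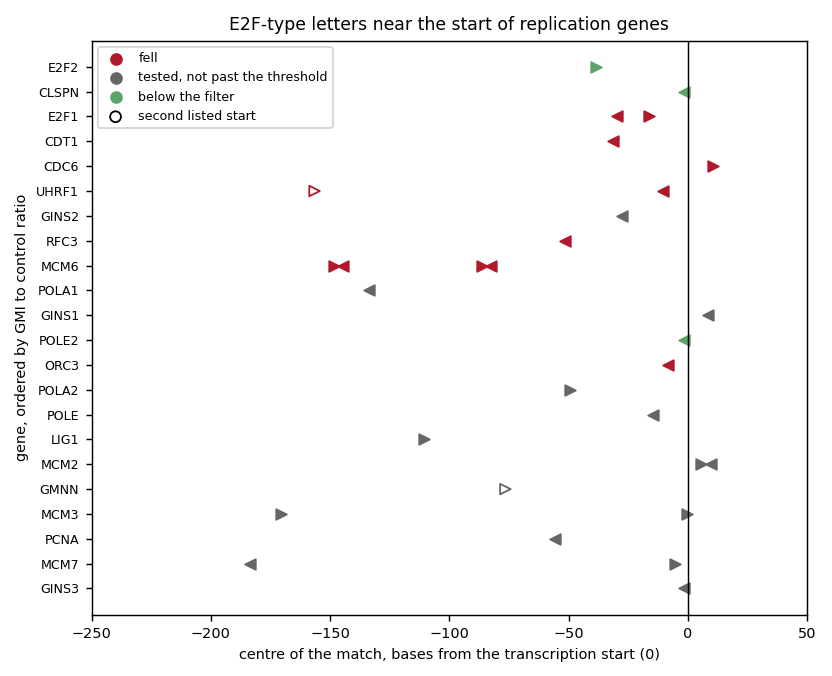
Centre of each E2F-type match in bases from the transcription start, for the 22 members with a match, ordered from the lowest to the highest ratio of mean FPKM, GMI over control. Arrowheads give the strand, colours the test result, and open symbols a second listed start; 20 of the 30 matches begin within 60 bases of the start.

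Subunits of the origin recognition complex did not move alike. Of 6 ORC genes 4 fell, none rose (0), ORC4 did not pass and ORC1 was below the filter. Among all genes tested 6.12% fell and 9.30% rose. ORC1, the large ATPase subunit that is degraded and remade in each cycle in human cells, had 0.89 and 1.06 FPKM in the controls and 0.26 and 0.33 after GMI. That is a ratio of 0.301 with an exact 95% counting interval of 0.206 to 0.430, on about 139 and 40 fragments. ORC6 had 1.52 and 1.96 FPKM in the controls and 0.85 and 0.77 after GMI (log2 fold change -0.59, SE 0.120, limma adjusted p = 0.0219). Its GMI mean was 0.466 of the control mean, and for both ORC1 and ORC6 the GMI libraries lay under both controls.

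ORC2 had 3.8 and 4.25 FPKM in the controls and 2.96 and 3.0 after GMI, a log2 fold change of -0.33 with an SE of 0.087 (limma adjusted p = 0.0466). ORC3 had 6.0 and 6.89 FPKM in the controls and 4.62 and 4.96 after GMI (-0.36, SE 0.089, adjusted p = 0.0401). In ORC5 the controls had 7.09 and 8.37 FPKM and the GMI libraries 5.65 and 5.85 (-0.37, SE 0.091, adjusted p = 0.0409). The ratios of these 3 core subunits lay between 0.740 and 0.744, and in each of them control replicate 2 was the highest library. Without the mean-variance trend ORC3 and ORC5 missed the threshold (limma adjusted p = 0.055 and 0.0591). In ORC4 both GMI libraries were above both controls, with 2.0 and 2.01 FPKM in the controls and 2.23 and 2.38 after GMI, and a log2 fold change of 0.14 that missed the threshold (limma adjusted p = 0.348). Summed over the 6 subunits, FPKM was 21.3 and 24.5 in the controls and 16.6 and 17.3 after GMI. Control levels ran from 0.975 FPKM for ORC1 to 7.73 FPKM for ORC5.

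Both licensing factors fell, to nearly the same share of their control levels. CDC6, the ATPase that works with ORC to load the helicase, had 2.63 and 2.54 FPKM in the controls and 1.42 and 1.18 after GMI. CDC6 (ENSG00000094804) fell by 0.64 on the log2 scale (SE 0.101, limma adjusted p = 0.0095) and kept 0.503 of its control mean. CDT1, which brings the helicase to origins, had 2.32 and 2.38 FPKM in the controls and 1.33 and 1.02 after GMI. CDT1 (ENSG00000167513) fell to 0.5 of its control mean, that is -0.63 on the log2 scale (SE 0.109, adjusted p = 0.0134). The control SD was 0.0636 FPKM for CDC6 and 0.0424 FPKM for CDT1. Geminin (GMNN), the inhibitor that binds CDT1 and blocks relicensing, had 4.01 and 3.60 FPKM in the controls and 2.99 and 3.13 after GMI. The groups of GMNN did not overlap, but its log2 fold change of -0.24 missed the threshold (SE 0.088, adjusted p = 0.111). Geminin RNA was above that of CDT1 in every library, at 1.62 times in the control means and 2.60 times in the GMI means. This ratio was not tested, and its size rests on gene lengths that are not given.

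In the MCM2-7 ring, whose 6 different subunits assemble in equal numbers, 3 genes fell and none rose (0), and both GMI libraries were below both controls for all 6. Of all genes tested 6.12% fell, 9.30% rose and 30.4% had both GMI libraries below both controls. MCM6 had 5.94 and 5.79 FPKM in the controls and 3.77 and 3.79 after GMI, so replicates differed far less than groups (log2 fold change -0.52, SE 0.075, limma adjusted p = 0.00713). MCM5 had 3.51 and 3.04 FPKM in the controls and 2.27 and 2.32 after GMI (-0.37, SE 0.094, adjusted p = 0.0429). MCM4 had 8.78 and 9.52 FPKM in the controls and 7.57 and 6.90 after GMI (-0.30, SE 0.080, adjusted p = 0.0496). MCM5 missed the threshold with median-centred libraries (adjusted p = 0.0522). MCM4 is at the edge of the threshold and missed it with a pseudocount of 0.1 (adjusted p = 0.0501) and without the mean-variance trend (0.0704).

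The other ring subunits did not pass. MCM2 had 6.12 and 6.24 FPKM in the controls and 5.25 and 4.50 after GMI (-0.29, SE 0.088, limma adjusted p = 0.071). In MCM2, 23.6% of exon bases overlap TPRA1 and an antisense gene on the opposite strand in GENCODE 29, and without a stated strand setting reads of these genes cannot be told apart. MCM3 had 14.8 and 14.9 FPKM in the controls and 13.3 and 12.1 after GMI (-0.21, SE 0.072, adjusted p = 0.091). MCM7 was closest to its control level, with 12.2 and 12.4 FPKM in the controls and 12.1 and 11.5 after GMI (-0.06, SE 0.067, adjusted p = 0.607). Ratios within the ring thus ranged from 0.645 for MCM6 to 0.958 for MCM7. The ring's summed FPKM was 51.4 and 51.9 in the controls and 44.3 and 41.1 after GMI. MCM5 had the lowest FPKM of the 6 in each library and MCM3 the highest. This order rests on the gene lengths behind the FPKM values, which are not given. In GENCODE 29 the exons of MCM5 span 7338 nt, those of MCM6 4118 nt and those of MCM3 3650 nt.

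Of 6 genes that turn the loaded ring into an active helicase, MCM10, CDC45 and GINS4 were below the filter, and 0 of the other 3 passed. MCM10, an activator of the assembled helicase, had 0.37 and 0.50 FPKM in the controls and 0.06 and 0.12 after GMI, about 107 fragments against 21 (ratio 0.205, exact 95% counting interval 0.122 to 0.330). CDC45, a core part of the active helicase, had 0.99 and 0.90 FPKM in the controls and 0.47 and 0.22 after GMI (ratio 0.366, interval 0.251 to 0.524). In both the groups were apart. The 4 GINS subunits, which form 1 complex, differed. GINS1 had 3.18 and 3.25 FPKM in the controls and 2.06 and 2.56 after GMI (log2 fold change -0.35, limma adjusted p = 0.0649). GINS2 had 2.04 and 1.68 FPKM in the controls and 0.97 and 1.31 after GMI (-0.42, adjusted p = 0.0687). GINS3 had 3.24 and 3.11 FPKM in the controls and 3.70 and 4.25 after GMI (0.25, adjusted p = 0.112). GINS4, at 0.45 to 0.75 FPKM, had overlapping groups. Both GMI libraries lay below the controls for GINS1 and GINS2 and above them for GINS3.

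Of 8 tested polymerase genes 1 fell, against 6.12% of all genes tested. The polymerase alpha-primase complex makes the RNA-DNA primers, and 0 of its 4 genes passed. PRIM1, the catalytic primase, had 1.9 and 1.7 FPKM in the controls and 1.09 and 1.30 after GMI (log2 fold change -0.35, limma adjusted p = 0.0723). POLA1 and POLA2 had log2 fold changes of -0.30 each, with both GMI libraries under both controls, whereas the groups of PRIM2 overlapped (-0.07). In GENCODE 29 exons of PRIM1 (21.6%) and POLA2 (35.1%) overlap those of other genes, so their values may hold fragments of neighbours or miss their own. The overlap was 23.6% for GINS4, 10.9% for GINS3 and 10.6% for RFC5. Apart from MCM2, it was at most 8.94% for the other members with an exon length. Among the polymerases of the lagging and leading strands, delta and epsilon, only POLD2 fell. This accessory subunit of polymerase delta had 33.3 and 31.7 FPKM in the controls and 26.5 and 25.1 after GMI, that is -0.32 on the log2 scale (SE 0.064, adjusted p = 0.0211). The catalytic subunit POLD1 had 10.8 and 10.5 FPKM in the controls and 10.5 and 9.64 after GMI (-0.07, adjusted p = 0.574), and POLD3 also overlapped between groups (-0.07). POLE, the catalytic subunit of polymerase epsilon, had a log2 fold change of -0.19 (adjusted p = 0.327), and its partner POLE2 lay between 0.23 and 0.69 FPKM with overlapping groups.

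PCNA had by far the highest level of any member. It stood at 144 and 146 FPKM in the controls and at 127 and 133 after GMI, so the GMI mean was 0.896 of the control mean and the groups did not overlap. Its log2 fold change of -0.16 (SE 0.056) missed the threshold (limma adjusted p = 0.106). PCNA has 3 named pseudogenes in the annotation, none of which exceeded 0.17 FPKM. Of the 5 loader subunits only RFC3 fell, from 2.25 and 2.60 FPKM in the controls to 1.53 in each GMI library (log2 fold change -0.44, SE 0.099, adjusted p = 0.0311). Among all genes tested 6.12% fell. RFC5 had 4.01 and 4.26 FPKM in the controls and 3.44 and 2.52 after GMI (-0.38, adjusted p = 0.0847). RFC2 (-0.16) and RFC4 (-0.17) were lower in both GMI libraries without passing, and RFC1, the large subunit, overlapped between groups at 3.75 to 4.19 FPKM (0.03).

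The 2 genes that finish lagging-strand pieces were also lower without passing. FEN1, the flap nuclease, had 21.9 and 19.3 FPKM in the controls and 16.6 and 18.7 after GMI (log2 fold change -0.21, limma adjusted p = 0.157). The ligase gene LIG1 had 6.76 and 6.25 FPKM in the controls and 5.41 and 4.69 after GMI (-0.31, adjusted p = 0.0618). RPA, the trimer that coats single-stranded DNA, had the ratio of summed FPKM nearest to 1 among the 11 groups of members, 0.961. Its summed FPKM was 37.4 and 35.7 in the controls and 33.6 and 36.7 after GMI, groups that overlapped. RPA1 was lower in both GMI libraries (-0.18, adjusted p = 0.109) and RPA2 overlapped (-0.10). RPA3, the smallest subunit, had 5.93 and 5.34 FPKM in the controls and 6.43 and 7.78 after GMI (0.29, adjusted p = 0.11), the highest log2 fold change among the tested members.

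Among genes that rebuild chromatin behind the fork, 1 of 3 fell, against 6.12% of all genes tested. UHRF1 (ENSG00000034063), which recruits the maintenance DNA methyltransferase to newly copied DNA, had 3.02 and 3.20 FPKM in the controls and 1.76 and 1.42 after GMI. Its log2 fold change was -0.67 (SE 0.103, limma adjusted p = 0.00915), and the GMI mean was 0.511 of the control mean. CHAF1A and CHAF1B, the large subunits of the histone chaperone CAF-1, had log2 fold changes of -0.12 (adjusted p = 0.42) and -0.19 (adjusted p = 0.319). Both GMI libraries of each were under both controls, and neither gene passed.

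**Figure D3:**
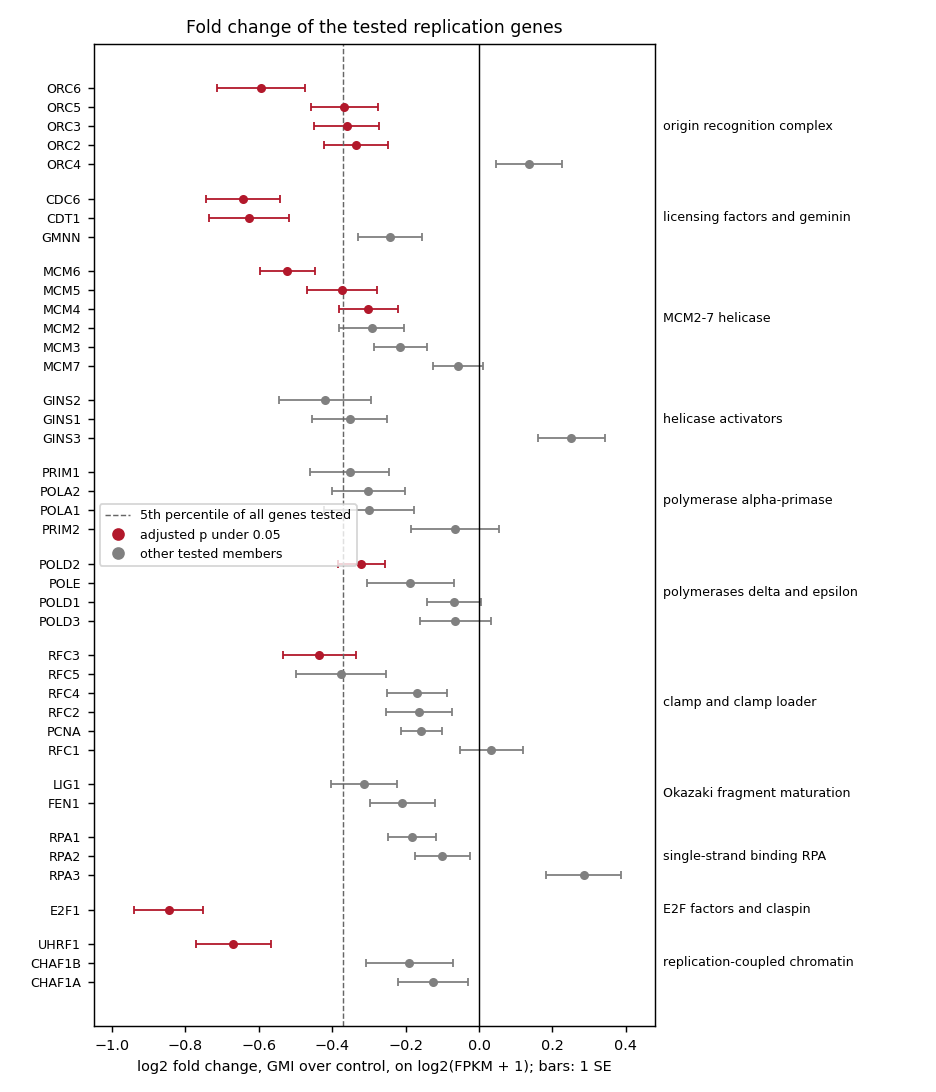
Log2 fold change, GMI over control, of the 40 tested members on the log2(FPKM + 1) scale with bars of 1 SE, by complex and ordered within it, red where the adjusted p is under 0.05. E2F1 at -0.84 is the lowest point, 4 of the 40 points are above 0, and the dashed line at -0.37 is the 5th percentile of all 11598 genes.

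Ratio and level went together across members. The 8 members with a mean under 1 FPKM had a median ratio of 0.334, GMI over control, with a range of 0.111 to 0.867. For the 24 members from 1 to 5 FPKM the median was 0.720, and for the 13 from 5 to 20 FPKM it was 0.858. The 2 members above 20 FPKM, POLD2 and PCNA, had ratios of 0.795 and 0.896. Scarce genes have wider counting error, a gene that is lower after GMI also has a lower mean, and adding 1 to FPKM shrinks fold changes of scarce genes, so log2 fold changes of unlike levels are not on 1 footing. Fitted with voom on approximate fragment numbers, an alternative chosen after seeing the data, ORC6 had a log2 fold change of -1.1, CDC6 -0.99, CDT1 -1.01 and E2F1 -1.14. That fit called 19 of 39 members lower, against 10.7% of the 11311 genes it tested, and none (0) higher, against 1366 of those genes.

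**Figure D4:**
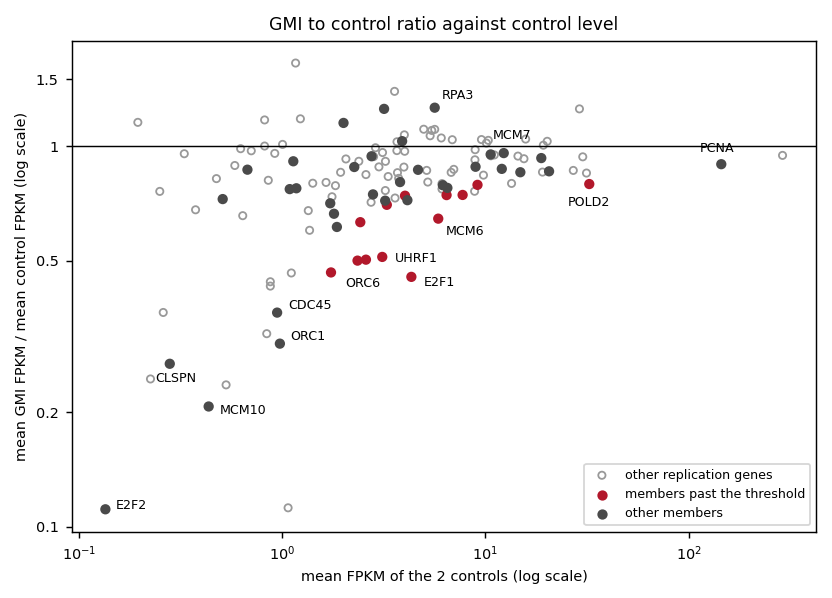
Ratio of mean FPKM, GMI over control, against the control mean, both on log axes, for the 47 members (red where past the threshold, dark grey otherwise) and other replication genes (open circles, without E2F8, which is listed at 0 after GMI). Members under 1 FPKM reach ratios of 0.111 to 0.867, while PCNA at 145 FPKM has 0.896.

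Other genes of replication and its control, 85 listed by function in 7 groups, gave fewer calls. Of the 64 that were tested 4 fell (6.25%, against 6.12% of all genes) and 2 rose (3.13%, against 9.30%), with a median log2 fold change of -0.10. The share that fell was near that of all genes. Both GMI libraries were below both controls in 32 of the 64, against 30.4% of all genes, and above both in 7, against 29.8%. Of 18 tested fork and polymerase subunits, the topoisomerase genes TOP2A (1.11 ± 0.00 to 0.515 ± 0.050 FPKM, log2 fold change -0.48, limma adjusted p = 0.0328) and TOP2B (-0.30) fell. TOP2A reached 1 FPKM in the control libraries only, so its passing the filter already depended on a difference. POLD4, the small subunit of polymerase delta, rose from 29.05 ± 0.120 to 36.4 ± 1.08 FPKM (0.31, adjusted p = 0.0172). This is opposite in sign to POLD2 of the same enzyme. Of 7 tested firing kinases and initiation factors, CCNE1, cyclin E1, fell from 8.86 ± 0.318 to 6.74 ± 0.431 FPKM (-0.35, adjusted p = 0.0279), while CDC7 and DBF4 did not pass.

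Of 10 tested E2F, RB and DREAM regulators 0 passed. The repressor E2F4 had 31.7 and 31.2 FPKM in the controls and 27.6 and 25.9 after GMI (log2 fold change -0.23, limma adjusted p = 0.0542), a control mean 7.27 times that of E2F1. Named after its values were seen, MYBL2, which activates late cell-cycle genes, was below the filter with 1.20 and 0.94 FPKM in the controls and 0.12 in each GMI library. Of 9 tested genes for the destruction of CDT1 and the ubiquitination of PCNA 0 passed. DTL, the receptor that brings CDT1 on PCNA to its ubiquitin ligase, was below the filter with 0.89 and 0.79 FPKM in the controls and 0.35 and 0.19 after GMI. Like MYBL2, DTL was untested, and the 21 genes below the filter in these other lists did not move alike. Their ratios ran from 0 for E2F8 through 1 for LIN54 to 1.17 for TFDP2. CDKN1A, which encodes the PCNA-binding CDK inhibitor p21, stayed at 270 to 293 FPKM in all 4 libraries (-0.08, adjusted p = 0.359). Of 7 tested genes of chromatin assembly the histone chaperone NASP fell (6.12 ± 0.071 to 4.72 ± 0.283 FPKM, -0.32, adjusted p = 0.0393). Of 9 tested fork checkpoint genes WEE1, the kinase that restrains CDKs, rose from 1.17 ± 0.021 to 1.93 ± 0.177 FPKM (0.43, adjusted p = 0.0346). None of 4 MCM paralogs and origin cofactors passed (0).

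**Figure D5:**
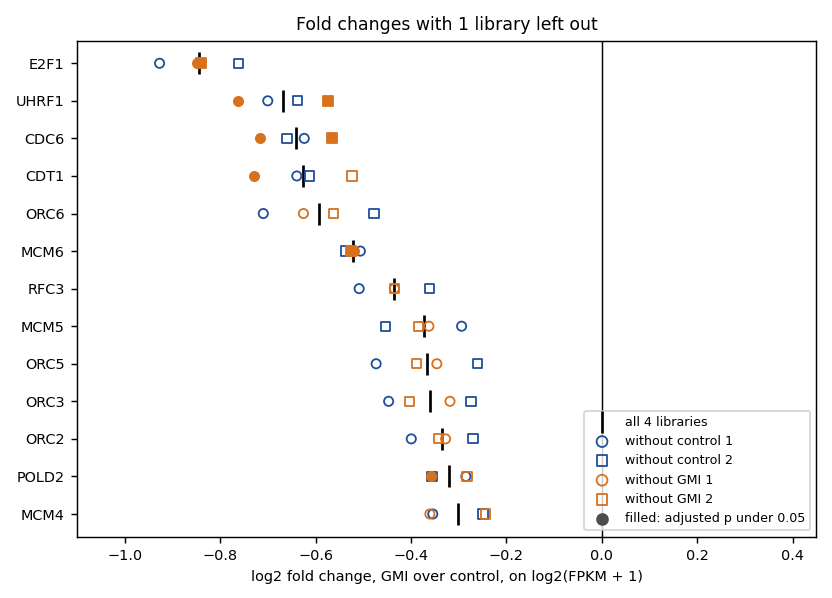
Log2 fold change, GMI over control, of the 13 members that fell, with all 4 libraries (bar) and with 1 library left out (blue for a control, orange for GMI, filled where the adjusted p is under 0.05). Every point is below 0, which was fixed in advance because both GMI libraries of each gene were below both controls. No point without a control library is filled.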

How the data were processed

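RNA of 2 control and 2 GMI libraries of A549 cells was sequenced after 24 h, and groups and replicate numbers come from the sample titles. The authors deposited FPKM values with 2 decimals, per the file headers. In the submitters' processing notes the tools named are HISAT2 2.0.1, HTSeq 0.6.1, bcl2fastq 2.17.1.14 and cutadapt 1.9.1, and the build is GRCh37. The sources used here do not give the strand setting, gene lengths or annotation release.

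Genes with at least 1 FPKM in at least 2 libraries were fitted with limma 3.58.1 (R 4.3.3) on log2(FPKM + 1) with no covariate and a mean-variance trend. P-values were adjusted by Benjamini-Hochberg over the 11598 genes tested. Residual degrees of freedom were 2 per gene, and the prior added 4.69. Adding 1 understates changes of scarce genes.

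Depth was read from FPKM steps of genes up to 200 nt and below 20 FPKM, using GENCODE 29 exon lengths. Between 95.8% and 96.8% of these values were whole fragments within 0.006 FPKM, against 2.82% to 3.21% by chance. Fragment numbers rebuilt this way summed to 106% of the denominator in each library, so they are approximate, and UHRF1 had no length. Intervals cover counting error only.

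Members, lists and tests were chosen with earlier results of these data known. Every member is accounted for, with full statistics for those past the threshold and for PCNA, MCM2 to MCM7, GMNN, CDT1, CDC6 and E2F1. In other lists every gene past the threshold is named. Other genes named there, among them DTL, MYBL2, E2F4 and CDKN1A, lie outside that rule. Promoter windows of 41 members were matched by symbol. Of 12 alternatives, the filter on the mean of at least 1 FPKM and voom on fragments were chosen after seeing the data. Python 3.11.15, numpy 2.4.6 and pandas 2.3.3 prepared the tables.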

Additional observations from a re-analysis of the deposited data

How the results depend on the processing

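All 18 members given with full statistics kept a log2 fold change below 0 under each of the 12 alternatives in which they were tested. With 1 library left out this sign was fixed in advance, because both GMI libraries of each member were below both controls. Other filters, dropping the trend and the block leave these fold changes as they were, so the shared sign is no separate support. The count of members that fell depended on the controls, ranging from 0 to 8 with 1 library left out, while all genes past the threshold ranged from 45 to 1369 instead of 1789. There the single library left in a group is taken to vary as the other group does. The members' median ranged from -0.28 to -0.23 in these fits. Without a filter on low values 1 of 26758 genes and 0 members passed. At a mean of at least 5 FPKM, 6 of the 15 remaining members fell, against 11.6% of 6070 genes (median -0.21), LIG1 and MCM2 among them. Of the members that fell in the main fit, only ORC3, ORC5, MCM4 and POLD2 were still tested there. E2F1, CDC6, CDT1, UHRF1 and the rest were not. A pseudocount of 0.1 moved the median to -0.34 and called 12 members, against 5.94% of all genes, and voom on approximate fragments moved it to -0.35 and called 19. Fewer genes or libraries enter some of these fits by construction, and otherwise the cause was not tested. Median-centred libraries gave 12 members, no trend 10, against 5.62% and 4.93% of all genes, and no alternative called a member higher (0).

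With the replicate number as a block (replicate block), 17 members fell, against 6.98% of all genes, and 2000 genes passed. Deviations of same-numbered libraries from their group means correlated at -0.044, and with 2 libraries a group the numbers are not shown to pair samples. The 7 members below the FPKM filter rest on approximate fragment numbers from 3 for E2F2 to 136 for GINS4 over the GMI libraries.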
